A study of Homo sapiens with 16 samples.

Results

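The genes described here are 36 antioxidant and redox genes, most of them known targets of the transcription factor NRF2, measured in human multiple myeloma cells with and without a proteasome inhibitor. They were taken by name, and probes were assigned to them through the RefSeq accession that the array design gives, so that 35 of the 36 had at least 1 probe among 20503 gene symbols in all. LP-1 is a myeloma cell line that carries a lesion of TRAF3, an adaptor that restrains NF-κB. LP-1-cIAP2-eGFP cells had been made with a lentivirus from pIRES2 encoding the ubiquitin ligase cIAP2 together with eGFP, and control (LP-1-eGFP) cells with the same vector encoding eGFP alone; the cells were sorted by flow cytometry. Each line was either left untreated or incubated with bortezomib at 10 nM, for 6 h or for 24 h, and each of the 8 conditions had 2 biological replicates on single-colour Agilent arrays, 16 arrays in all. The array number limits the precision. The array probe of BIRC3, the gene of cIAP2, lies outside the transduced sequence and reads the endogenous transcript, so it gives no check of the overexpression. Its signal averaged over treatment and time was 1.16 lower on the log2 scale in LP-1-cIAP2-eGFP cells than in control (log2 change -1.16, adjusted p = 7.42e-06). The gap was uneven. At 24 h LP-1-cIAP2-eGFP cells read 11.92 and 12.06 untreated, against 13.54 and 13.55 in control. With bortezomib at 24 h they read 13.58 and 13.67, against 14.04 and 13.83.

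In unstressed cells NRF2, encoded by NFE2L2, is held by KEAP1 in a CUL3 ubiquitin ligase complex and degraded by the proteasome. Oxidants and electrophiles modify KEAP1, NRF2 then enters the nucleus, pairs with a small MAF protein and binds antioxidant response elements, while BACH1 competes for the same elements. Its targets make and recycle glutathione, run the thioredoxin system, supply NADPH and detoxify heme, quinones and carbonyls. Plasma cells fold large amounts of secreted protein through disulfide bonds, a process that yields peroxide in the endoplasmic reticulum.

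Of the 36 genes, 34 were tested, and 33 of these lay well above background on all 16 arrays by the scanner software's own test; ME1 did so on 14. AKR1C1 was well above background on 2 arrays and was not tested, and PRDX2 had no matched probe. A check list of 9 genes known to respond to proteasome inhibition held among others BAG3, DNAJB1 and PSMD12, and 9 of 9 rose with bortezomib at 24 h in each line. Among them HSPA1A was well above background on only 6 of 16 arrays and read 2.60 to 2.82 on untreated ones. It entered the test through bortezomib arrays alone, so its rise adds nothing to the check. For ATF3, 1 of the further probes changed by 0.13 in control and did not pass. All 10 plasma cell markers were measured, and 7 of 10 fell and 1 rose with bortezomib at 24 h in each line (SDC1 by -1.80 on the log2 scale in control and -3.11 in LP-1-cIAP2-eGFP cells), whereas at 6 h 1 of 10 fell. Of all probes tested, 11.2% fell and 9.81% rose at 24 h in control, and 17.5% and 11.1% in LP-1-cIAP2-eGFP cells. At 6 h 0.691% and 0.323% of probes fell in the same order of lines. The marker that rose was SLAMF7 in control (1.12) and POU2AF1 in LP-1-cIAP2-eGFP cells (0.55). SLAMF7 was well above background on only 13 of 16 arrays. In control at 24 h it read 5.04 and 5.00 untreated and 5.85 and 6.42 with bortezomib, so its rise there began from a low signal. Of the 5 B cell markers, MS4A1 and PAX5 were well above background on 0 of 16 arrays. Of the 9 T cell, myeloid and epithelial markers 6 were tested, CD3D and CD3E lay well above background on 12 and 10 arrays and CSF1R on 0, and none passed the test with bortezomib in control, whereas KRT18 was higher at 24 h in LP-1-cIAP2-eGFP cells (0.73) on its brightest probe but did not pass on another (0.40, adjusted p = 0.536). CD2 and CD14 read higher on LP-1-cIAP2-eGFP bortezomib 24 h replicate 1 (11.49 and 8.69) than on its replicate (6.35 for each). The part of the plasma cell genes in the results that follow was not tested. On arrays of whole cultures, fewer cells that express a gene and less of its RNA per cell cannot be told apart.

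One array stood apart in signal. LP-1-cIAP2-eGFP bortezomib 24 h replicate 1 had a median log2 signal of 3.18 before normalization, with 35.5% of spots well above background, whereas its replicate had 6.04 and 55.0%. After normalization its 34 tested redox genes differed from the other replicate by a median size of 0.25 on the log2 scale, against 0.080 to 0.135 in the other 7 conditions, and 8 of 34 differed by more than 0.5. It is called the dim array below, and results at 24 h in LP-1-cIAP2-eGFP cells are given with and without it where that matters. LP-1-eGFP untreated 24 h replicate 1 also differed from its replicate, in stress genes named here after their values were seen. It read 11.91 against 9.94 for DDIT3, 11.42 against 9.45 for ATF3, 11.51 against 9.46 for SESN2 and 10.30 against 7.47 for SLC7A11. It also held the higher untreated values of GCLM and TXNIP, and its part in the results at 24 h in control was not tested beyond leaving it out.

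The promoter windows of these genes were searched for the core letters of an antioxidant response element, TGACNNNGC, on both strands, where a match on the opposite strand reads GCNNNGTCA. RefSeq windows on GRCh38.p14, from 250 bases before to 50 after the start, were at hand for 28 of the 36 genes, in 42 windows, and 9 of these (21.4%) held a match, as did 13.3% of all 35116 windows. HMOX1, GSS, GSR, TXN2, PRDX1, PRDX6, ABCC1 and SOD1 had no window here. Letters of this kind also fit sites of other basic leucine zipper factors such as AP-1. For 4 genes that recur in the results 1 match each is shown with 10 bases on either side, 5′ to 3′ on the strand of the gene, the matching letters in capitals; they stand for a rise with bortezomib (IDH1), a rise that did not pass the test (GCLM), a level that moved little at 24 h (TXNRD1) and a difference between the lines (EPHX1). The coordinates are chr2:208255196-208255224 for IDH1 (minus strand), chr1:93909446-93909474 for GCLM (minus strand), chr12:104215670-104215698 for TXNRD1 (plus strand) and chr1:225825266-225825294 for EPHX1 (plus strand), all upstream of the start.
IDH1: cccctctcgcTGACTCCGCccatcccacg
GCLM: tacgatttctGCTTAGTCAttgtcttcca
TXNRD1: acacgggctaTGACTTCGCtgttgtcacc
EPHX1: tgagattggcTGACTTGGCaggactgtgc
TXNRD1 held 2 further matches, both on the opposite strand, which are not printed. A match says only that the letters are there. Binding was not measured in these cells.

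Bortezomib raised a small set of these genes within 6 h, and at 24 h further genes rose and others fell. At 6 h, 6 of 34 rose and 0 fell in control, where 1.26% of all 33731 probes tested rose and 0.691% fell; in LP-1-cIAP2-eGFP cells 4 rose and 0 fell, against 0.762% and 0.323% of probes. At 24 h, 13 rose and 7 fell in control, beside 9.81% and 11.2% of probes, and 10 rose and 7 fell in LP-1-cIAP2-eGFP cells, beside 11.1% and 17.5%. These shares at 24 h are also the background for the 24 h counts of smaller groups of these genes below. Without LP-1-eGFP untreated 24 h replicate 1 the counts in control at 24 h were 13 and 4. With array weights 16 genes were called at 6 h in control and 5 at 24 h in LP-1-cIAP2-eGFP cells. Both arrays of a condition had the same weight (0.126 for LP-1-cIAP2-eGFP bortezomib 24 h), so the fitted changes stayed as they were. The shares of all probes called with weights are not given here. A gene was called here at a Benjamini-Hochberg adjusted p under 0.05 over all probes, from limma. The 10 genes that rose at 24 h in LP-1-cIAP2-eGFP cells were all among the 13 of control, 6 genes fell in both lines, and none was called in opposite directions. The median change at 24 h was 0.036 over the 34 genes and -0.032 over all probes in control, and -0.096 and -0.164 in LP-1-cIAP2-eGFP cells, so the spread of the genes was wide but their middle stayed near that of the array.

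HMOX1, the inducible heme oxygenase that opens the heme ring to biliverdin, had the lowest adjusted p of the 34 genes at 6 h in each line. In control its normalized log2 signal was 12.59 and 12.79 untreated and 15.37 and 15.50 with bortezomib at 6 h, and 12.29 and 12.54 against 14.23 and 14.45 at 24 h. In LP-1-cIAP2-eGFP cells it was 12.84 and 12.66 against 14.97 and 15.01 at 6 h, and 12.90 and 12.62 against 14.17 and 14.21 at 24 h. Every bortezomib array thus lay above every untreated array, and the bortezomib arrays of 6 h lay above those of 24 h. The rise was 6.71-fold at 6 h (log2 2.75 ± 0.16, SE; adjusted p = 6.72e-05) and 3.79-fold at 24 h (1.92 ± 0.16, adjusted p = 5.54e-05) in control, and 4.72-fold (adjusted p = 0.000404) and 2.69-fold (adjusted p = 0.000202) in LP-1-cIAP2-eGFP cells. The arrays lay on 2 slides, each scanned at its own time. All bortezomib arrays of LP-1-cIAP2-eGFP cells were on slide 1 and both bortezomib 6 h arrays of control on slide 2, so slide and treatment were partly confounded. With the slide as a block, 62 of the 70 calls made over all comparisons of the 34 genes were kept and 8 were lost: IDH1 (control) and OSGIN1 (LP-1-cIAP2-eGFP) at 6 h, AKR1B1 and PRDX6 (control) and GSS and GPX1 (LP-1-cIAP2-eGFP) at 24 h, and NQO1 and GSS between the lines. Within the slide that held both treatments, the difference was 2.85 and 2.03 at 6 h and 24 h in control and 2.15 and 1.29 in LP-1-cIAP2-eGFP cells. At 24 h the within-slide difference was 2.51 and 2.64 for IDH1, 1.76 and 1.09 for SRXN1, -1.02 and -0.78 for NQO1, and -1.74 and -1.91 for PRDX4 in the same order of lines.

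**Figure D1:**
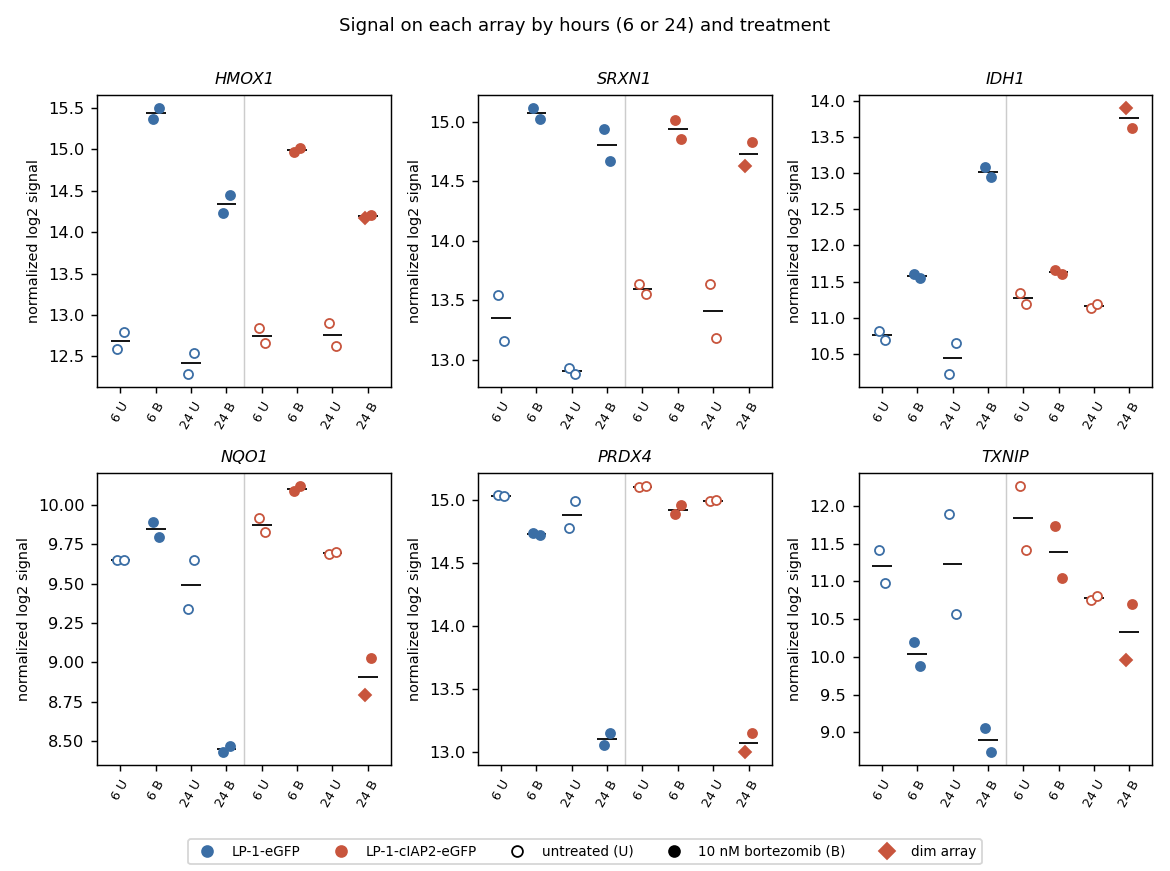
Normalized log2 signal (vertical axis) of 6 genes on each of the 16 arrays, by line, hours (6 or 24) and treatment (U untreated, B bortezomib); short lines are the means of 2 replicates and the diamond is the dim array. HMOX1 and SRXN1 stood high at both times with bortezomib, IDH1 rose mainly at 24 h, NQO1 and PRDX4 fell at 24 h, and TXNIP varied widely between replicates.

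NQO1, the quinone reductase often used as a readout of NRF2, went the other way. Its signal in control at 24 h was 9.34 and 9.65 untreated and 8.43 and 8.47 with bortezomib, and in LP-1-cIAP2-eGFP cells 9.69 and 9.70 against 8.79 and 9.03. The groups did not overlap in either line, and the fall was 2.06-fold (log2 change -1.05 ± 0.14, adjusted p = 0.00073) and 1.72-fold (-0.78 ± 0.14, adjusted p = 0.00285). At 6 h NQO1 had changed by 0.19 and 0.23, and neither value passed the test. PIR encodes pirin, an iron-binding nuclear protein; it rose 3.23-fold in control at 24 h (adjusted p = 4.72e-05) and 2.77-fold in LP-1-cIAP2-eGFP cells (adjusted p = 7.06e-05).

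Among the 8 genes of glutathione synthesis, recycling and peroxidases, 4 rose and 1 fell in control at 24 h, and 3 rose and 2 fell in LP-1-cIAP2-eGFP cells. GLRX, the cytosolic glutaredoxin that removes glutathione from proteins, was at 13.21 and 13.66 untreated and 15.14 and 15.17 with bortezomib in control at 24 h, and at 13.96 and 14.12 against 15.59 and 15.58 in LP-1-cIAP2-eGFP cells. The rise was 3.29-fold and 2.92-fold (adjusted p = 0.000195 and 0.000267), and it was already 2.85-fold and 2.49-fold at 6 h. GLRX2, the mitochondrial glutaredoxin, changed by 0.12 and 0.15 at 6 h and rose 2.16-fold and 2.04-fold at 24 h (adjusted p = 0.000766 and 0.000937). GSR, which reduces oxidized glutathione with NADPH, rose 3.16-fold in control at 24 h (adjusted p = 6.52e-05) and 2.11-fold in LP-1-cIAP2-eGFP cells (adjusted p = 0.000533). Its second probe gave smaller changes of 0.74 (adjusted p = 0.00521) and 0.39 (adjusted p = 0.0741), so the size of the GSR response depends on the probe.

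The 2 subunits of glutamate-cysteine ligase, the rate-limiting enzyme of glutathione synthesis, were less clear. GCLC, the catalytic subunit, rose 1.88-fold at 6 h (adjusted p = 0.00975) and 1.51-fold at 24 h (adjusted p = 0.00954) in control. In LP-1-cIAP2-eGFP cells its change was 0.66 at 6 h and 0.37 at 24 h, and neither passed. The 24 h call in control was lost without LP-1-eGFP untreated 24 h replicate 2 or without LP-1-eGFP bortezomib 24 h replicate 2, with an adjusted p of at most 0.0527 and a change of 0.56 to 0.63 over the 16 fits with an array left out. GCLM, the modifier subunit whose window is printed above, was at 12.95 and 11.81 untreated and 13.40 and 13.38 with bortezomib in control at 24 h, and at 12.77 and 12.59 against 14.42 and 13.25 in LP-1-cIAP2-eGFP cells. The bortezomib arrays were higher in each line, but the replicates of untreated control and of treated LP-1-cIAP2-eGFP cells were more than 1 unit apart. The changes of 1.01 and 1.16 did not pass (adjusted p = 0.109 and 0.0549). The higher treated value of LP-1-cIAP2-eGFP cells was the dim array, and its replicate lay 0.57 above the untreated mean.

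GPX1, the cytosolic glutathione peroxidase, fell by 0.64 on the log2 scale in control at 24 h (adjusted p = 0.00434), whereas its fall in LP-1-cIAP2-eGFP cells (-0.37, adjusted p = 0.0451) lost its call in 14 of the 16 fits with an array left out. Its second probe gave -0.56 (adjusted p = 0.134) and -0.92 (adjusted p = 0.0158). GSS, glutathione synthetase, fell by 0.44 in LP-1-cIAP2-eGFP cells (adjusted p = 0.0408) and changed by -0.08 in control, and the call was lost in 13 of 16 such fits, the one without the dim array included (-0.30, adjusted p = 0.126); with normexp background correction the change was 0.03 (adjusted p = 0.927). GPX4, which reduces lipid peroxides, changed by -0.02 and -0.39 at 24 h, and neither passed; the dim array read 13.90 and its replicate 14.39, -0.14 relative to the untreated mean.

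**Figure D2:**
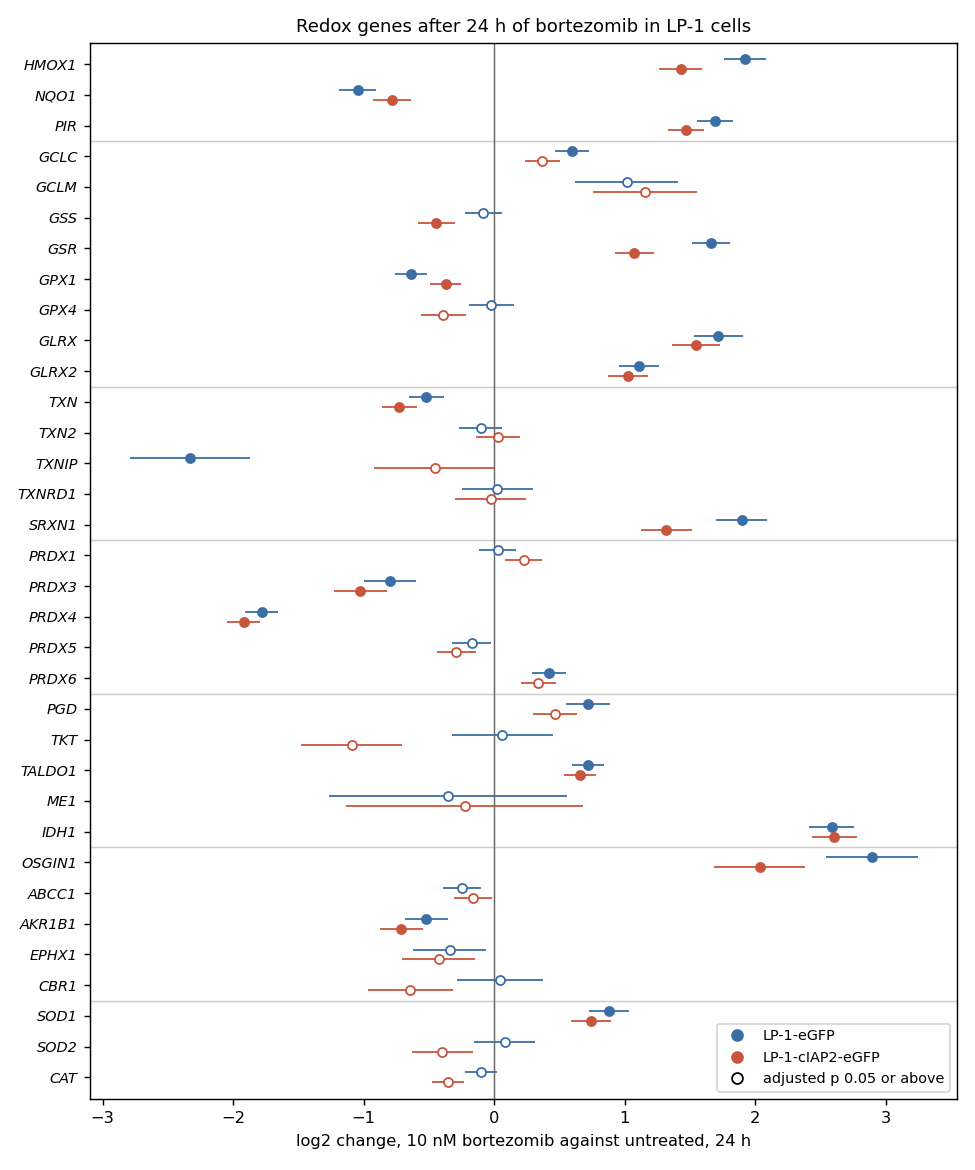
Change of the 34 tested genes with 10 nM bortezomib at 24 h against untreated cells (horizontal axis, log2; bars are SE from the fit over 16 arrays), in both lines; filled points passed the test, open points did not, and grey lines divide the groups of genes in the order of the text. Rises reach 2.90 for OSGIN1 and 2.61 for IDH1, falls reach -2.33 for TXNIP in control and -1.92 for PRDX4.

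In the thioredoxin system 1 of 5 genes rose at 24 h in each line. SRXN1, sulfiredoxin, which restores overoxidized peroxiredoxins, stood at 12.93 and 12.88 untreated and 14.94 and 14.67 with bortezomib in control, and at 13.64 and 13.18 against 14.63 and 14.83 in LP-1-cIAP2-eGFP cells. It was 3.73-fold and 2.50-fold higher (adjusted p = 0.000154 and 0.000874), close to its rise at 6 h (3.30-fold and 2.54-fold). TXN, thioredoxin itself, fell by 0.52 in control (adjusted p = 0.0202) and by 0.73 under cIAP2 overexpression (adjusted p = 0.00289), without overlap between treated and untreated arrays of 24 h; the call in control was lost in 4 of 16 fits with an array left out. TXNRD1, the cytosolic thioredoxin reductase, changed by 0.79 and 0.48 at 6 h and by 0.03 and -0.03 at 24 h, and TXN2, the mitochondrial thioredoxin, changed by -0.10 and 0.03 at 24 h. None of these values passed. The replicate of the dim array lay at -0.37 for TXNRD1 and 0.27 for TXN2 relative to the untreated mean.

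TXNIP binds and inhibits thioredoxin. Its signal in control at 24 h was 11.89 and 10.57 untreated and 9.06 and 8.74 with bortezomib, a 5.03-fold fall (log2 change -2.33 ± 0.46, adjusted p = 0.00548). The change was -1.68 without LP-1-eGFP untreated 24 h replicate 1 (adjusted p = 0.0361) and -2.98 without LP-1-eGFP untreated 24 h replicate 2. In LP-1-cIAP2-eGFP cells it was 10.76 and 10.81 against 9.96 and 10.70, a change of -0.46 that did not pass (adjusted p = 0.489). The lower of the treated values was the dim array, and its replicate lay at -0.09 relative to the untreated mean. The difference between the lines in this response was 1.88 ± 0.65, the largest in size among the 34 tested genes, yet it did not pass either (adjusted p = 0.536).

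The peroxiredoxins, which reduce peroxide through a cysteine that thioredoxin or another thiol regenerates, include 5 tested genes, of which 1 rose and 2 fell in control at 24 h and 2 fell in LP-1-cIAP2-eGFP cells. PRDX4, the form of the endoplasmic reticulum, was at 14.78 and 14.99 untreated and 13.06 and 13.15 with bortezomib in control at 24 h, and at 14.99 and 15.00 against 13.00 and 13.15 in LP-1-cIAP2-eGFP cells. Treated and untreated arrays lay far apart and replicates close together, and the falls of 3.44-fold (adjusted p = 2.51e-05) and 3.78-fold (adjusted p = 1.1e-05) had an SE of 0.13 on the log2 scale. PRDX3, the mitochondrial form, fell by 0.80 (adjusted p = 0.0182) and by 1.03 (adjusted p = 0.00407). Its call in control was lost without LP-1-eGFP untreated 24 h replicate 1, LP-1-eGFP untreated 24 h replicate 2 or LP-1-eGFP bortezomib 24 h replicate 2 (adjusted p up to 0.116), and without the dim array its change in LP-1-cIAP2-eGFP cells was -0.72 (adjusted p = 0.00963). PRDX6, a cytosolic form that uses glutathione, was 1.34-fold higher in control (adjusted p = 0.0491), a call lost in 14 of 16 fits with an array left out, and changed by 0.34 in LP-1-cIAP2-eGFP cells (adjusted p = 0.0825). Its second probe gave 0.35 (adjusted p = 0.0979) and 0.59 (adjusted p = 0.00848), so which line passed depends on the probe. PRDX1 (0.03 and 0.23) and PRDX5 (-0.17 and -0.29) did not pass at 24 h. For PRDX5 the replicate of the dim array lay at -0.09 relative to the untreated mean.

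Of the 5 genes that supply NADPH, 3 rose in control and 2 in LP-1-cIAP2-eGFP cells at 24 h, and none fell. IDH1, the cytosolic isocitrate dehydrogenase, was at 10.22 and 10.65 untreated and 13.09 and 12.95 with bortezomib in control, and at 11.13 and 11.19 against 13.91 and 13.63 in LP-1-cIAP2-eGFP cells. The rise was 6.00-fold and 6.09-fold (log2 2.59 and 2.61, each ± 0.17; adjusted p = 1.91e-05 and 1.08e-05), the dim array lay above its replicate, and without it the change in LP-1-cIAP2-eGFP cells rests on the other array at 2.47 above the untreated mean. TALDO1, transaldolase of the non-oxidative pentose phosphate pathway, rose 1.64-fold and 1.58-fold (adjusted p = 0.00239 and 0.00299). PGD, which makes NADPH in the oxidative branch, rose 1.65-fold in control (adjusted p = 0.013), a call lost without LP-1-eGFP bortezomib 24 h replicate 1 or LP-1-eGFP untreated 24 h replicate 2 (adjusted p up to 0.100), and changed by 0.46 in LP-1-cIAP2-eGFP cells (adjusted p = 0.0666).

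TKT, transketolase, changed by 0.06 in control and by -1.09 in LP-1-cIAP2-eGFP cells (adjusted p = 0.0611). The treated arrays of the latter read 14.92 on the dim array and 16.53 on its replicate, against 16.84 and 16.78 untreated, so most of the difference came from 1 array. ME1, the cytosolic malic enzyme, ran from 4.32 to 7.72 over the arrays, with untreated replicates of 6 h at 5.24 and 7.60 in control, and no comparison of it passed.

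OSGIN1, an inhibitor of growth induced by oxidative stress, had the highest fitted rise of the 34 genes in control at 24 h. Its signal was 8.71 and 8.07 untreated and 11.34 and 11.22 with bortezomib there, and 9.34 and 8.11 against 10.59 and 10.92 in LP-1-cIAP2-eGFP cells, 7.45-fold and 4.10-fold higher (log2 2.90 and 2.03, each ± 0.35; adjusted p = 0.000365 and 0.00209). The latter was 2.65 without LP-1-cIAP2-eGFP untreated 24 h replicate 1 and 1.415 without LP-1-cIAP2-eGFP untreated 24 h replicate 2 (adjusted p = 0.00896). AKR1B1, aldose reductase, fell by 0.52 in control (adjusted p = 0.0494), a call lost in 14 of 16 fits with an array left out, while its fall in LP-1-cIAP2-eGFP cells was 0.71 (log2 change -0.71, adjusted p = 0.00969), a call lost without LP-1-cIAP2-eGFP untreated 24 h replicate 1 (adjusted p = 0.0699). CBR1, carbonyl reductase, changed by 0.05 and -0.64, the latter with 11.31 on the dim array and 12.59 on its replicate, and ABCC1, an exporter of glutathione conjugates, by -0.24 and -0.16; none of these passed.

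SOD1, the cytosolic superoxide dismutase, was at 17.26 and 17.46 untreated and 18.23 and 18.25 with bortezomib in control at 24 h, and at 17.41 and 17.44 against 17.98 and 18.35 in LP-1-cIAP2-eGFP cells. It rose 1.84-fold and 1.68-fold (adjusted p = 0.00286 and 0.00565). SOD2, the mitochondrial form, changed by 0.08 and -0.40 (0.02 with the dim array left out), and CAT, catalase, by -0.10 and -0.36 (adjusted p = 0.67 and 0.0557); none passed.

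How the response moved between the times was tested as the 24 h change minus the 6 h change, averaged over the lines. Of the 34 genes 4 were higher and 7 lower, where 6.16% of probes were higher and 8.78% lower; with each array scaled to its 75th percentile the split was 2 and 7. IDH1 (2.00, adjusted p = 0.00014), PIR (1.03), GLRX2 (0.94) and GSR (0.86) had larger values at 24 h, but the second probe of GSR gave 0.02 (adjusted p = 0.962). PRDX4 (-1.61, adjusted p = 0.000105), NQO1 (-1.13), PRDX3 (-0.88), HMOX1 (-0.82), ABCC1 (-0.73), AKR1B1 (-0.70) and TXN (-0.61) had lower values. Of these 7, HMOX1 was still raised at 24 h while ABCC1 was called at neither time, and AKR1B1 lost this call without LP-1-cIAP2-eGFP untreated 6 h replicate 1, LP-1-eGFP bortezomib 6 h replicate 1 or LP-1-eGFP untreated 6 h replicate 2 (adjusted p up to 0.0552). The change of untreated cells from 6 h to 24 h, which is the background of this comparison, called 0 of 34 genes (4 at an unadjusted p under 0.05, GSR, TXN, SRXN1 and TALDO1), where 0.00593% of probes were higher and 0.00297% lower.

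**Figure D3:**
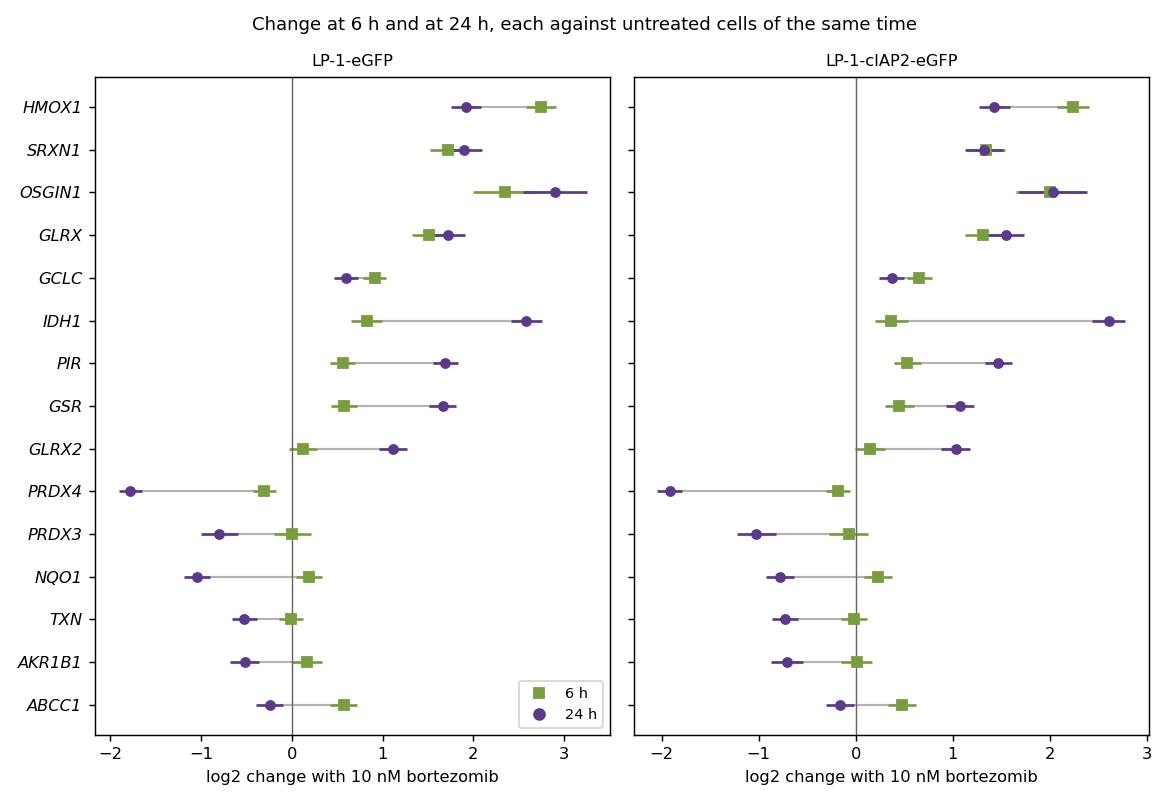
Change with 10 nM bortezomib (horizontal axis, log2; bars are SE) at 6 h (squares) and at 24 h (circles) for the 15 genes called at 6 h or between the times, in control and in LP-1-cIAP2-eGFP cells. HMOX1 was the gene of the early set whose change was smaller at 24 h by the test, and IDH1 and PRDX4 moved farthest between the times.

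The genes called at 6 h in control were HMOX1, SRXN1, OSGIN1, GLRX, GCLC and IDH1, and the first 4 of these were also called in LP-1-cIAP2-eGFP cells. All were called higher again at 24 h in control, and the first 4 in LP-1-cIAP2-eGFP cells. The HMOX1 call at 6 h was kept in every fit with an array left out. The others were lost in some: SRXN1 in control without LP-1-eGFP bortezomib 6 h replicate 1 or LP-1-eGFP untreated 6 h replicate 2 (adjusted p up to 0.0528), GLRX in control without LP-1-eGFP untreated 6 h replicate 1 or either LP-1-eGFP bortezomib 6 h array (up to 0.0715), GCLC and OSGIN1 in control in 4 fits each, and IDH1 in 12 of 16. In LP-1-cIAP2-eGFP cells OSGIN1 was lost in 10, GLRX in 4 and SRXN1 in 4 fits. At an unadjusted p under 0.05, 16 of 34 genes differed at 6 h in control and 10 in LP-1-cIAP2-eGFP cells. The share of all probes at that threshold is not given here, so this and other unadjusted counts have no background beside them. The 16 genes of control included PIR (0.56), GSR (0.57), ABCC1 (0.57), SOD1 (0.51) and TXNRD1 (0.79), none of which passed the adjusted test.

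The lines themselves differed in 12 of the 34 genes when averaged over treatment and time, 6 in each direction relative to control, beside 6.26% and 9.84% of all probes. EPHX1, microsomal epoxide hydrolase, differed most. Its signal ran from 10.55 to 11.68 on the 8 arrays of control and from 7.87 to 9.07 on the 8 arrays of LP-1-cIAP2-eGFP cells, with no overlap, and it was 5.27-fold lower in the latter (log2 change -2.40 ± 0.14, adjusted p = 3.77e-06). Within a slide the difference was between -2.82 and -2.26 in the 4 pairs of conditions that a slide held. GPX4 (-0.63, adjusted p = 0.000785), ABCC1 (-0.53), TXN (-0.44), GPX1 (-0.40) and PRDX1 (-0.39) were lower by less than 2-fold, and GLRX (0.54, adjusted p = 0.00332), IDH1 (0.51), CAT (0.34), GCLC (0.32), NQO1 (0.29) and GSS (0.26) higher by less than 2-fold. Of these calls NQO1 was lost in 9 and GSS in 11 of 16 fits with an array left out. Cell type markers also differed between the lines. Of 10 plasma cell markers 4 were higher and 1 lower than in control, the largest change being 5.79 for SLAMF7. SLAMF7 read 3.98 to 6.42 in control, a low signal, and 10.54 to 11.22 in LP-1-cIAP2-eGFP cells. It was well above background on 13 of 16 arrays, so the size of this change is uncertain. Of 2 tested B cell markers 1 was lower, as were 2 of 6 tested T cell, myeloid and epithelial markers. Their part in the differences of the redox genes was not tested. Each line is 1 transduced population, so cIAP2 and any other difference between the populations cannot be told apart.

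**Figure D4:**
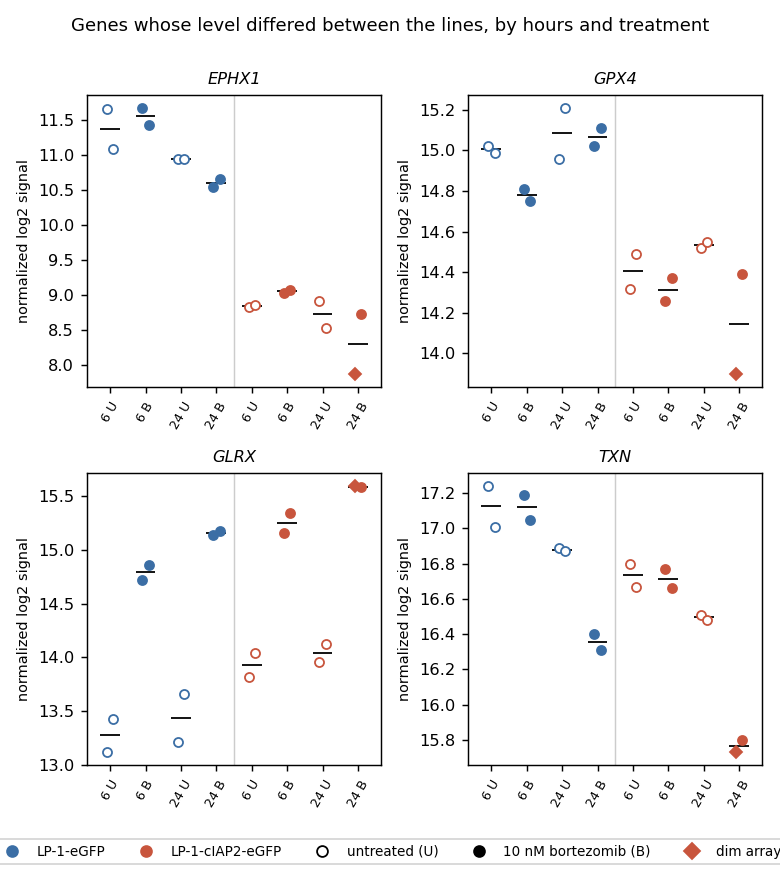
Normalized log2 signal (vertical axis) of EPHX1, GPX4, GLRX and TXN on each of the 16 arrays, by line, hours (6 or 24) and treatment (U untreated, B bortezomib); short lines are the means of 2 replicates and the diamond is the dim array. EPHX1 of control lies above 10.5 and of LP-1-cIAP2-eGFP cells below 9.1 in every condition, while GLRX and TXN differ by line and also change with bortezomib.

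Whether cIAP2 altered the response of these genes to bortezomib was asked through the difference of the responses. At 24 h 0 of 34 genes differed, where the response of 0.0474% of probes was higher and of 0.0237% lower under cIAP2 overexpression, and 2 genes, TXNIP (1.88) and GSR (-0.59), did so at an unadjusted p under 0.05. At 6 h 0 of 34 differed, 0 at an unadjusted p under 0.05, where 0% of probes were higher and 0.00297% lower. The count at 24 h was also 0 with the authors' normalized values and under each other setting tried, except without LP-1-cIAP2-eGFP bortezomib 24 h replicate 2, where the dim array stood alone for its condition and 5 genes were lower (GSR, GPX4, TKT, CBR1 and SOD2). The SE of a difference between responses ran from 0.17 for GPX1 to 1.29 for ME1 on the log2 scale, so with 2 arrays per condition a p above the threshold does not show that the lines responded alike.

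Of 14 genes that control NRF2 or share its binding partners and sites, 13 were tested. NFE2L2 was not: its probe was well above background on 1 of 16 arrays, which gives no measure of its transcript. KEAP1 lay between 12.65 and 13.21 on all arrays and changed by 0.34 and 0.31 at 24 h (adjusted p = 0.154 and 0.145). In control 6 of the 13 rose and 1 fell at 24 h, and 5 rose and 2 fell in LP-1-cIAP2-eGFP cells. Of all probes 9.81% rose and 11.2% fell in control, and 11.1% and 17.5% in LP-1-cIAP2-eGFP cells. MAFF, a small MAF protein, was 11.7-fold and 16.5-fold higher (adjusted p = 7.99e-07 and 4.16e-07) and already 4.94-fold and 5.25-fold higher at 6 h. SQSTM1, the autophagy receptor p62 that binds KEAP1, was 5.75-fold and 9.28-fold higher at 24 h. BACH1, the repressor that competes with NRF2, rose at both times in both lines (1.31 and 1.14 at 6 h, 1.32 and 1.88 at 24 h), although its second probe did not pass at 6 h in LP-1-cIAP2-eGFP cells (1.14, adjusted p = 0.158), and RBX1, a subunit of the KEAP1 ligase complex, fell by 0.53 and 0.57 at 24 h.

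Of 22 other genes known as NRF2 targets, 16 were tested, and 5 rose and 0 fell at 24 h in control, and 4 rose and 4 fell in LP-1-cIAP2-eGFP cells. The shares of all probes were 9.81% higher and 11.2% lower in control, and 11.1% and 17.5% in LP-1-cIAP2-eGFP cells. None of the 16 differed between the lines in the 24 h response by the adjusted test, and among the genes that fell ABCC4 and GSTM4 read lowest on the dim array (2.74 and 7.70, against 4.94 and 9.07 on its replicate). SLC7A11, the cystine importer, was at 8.46 and 8.09 untreated and 12.31 and 12.25 with bortezomib at 6 h in control, and at 6.14 and 6.72 against 10.92 and 10.86 in LP-1-cIAP2-eGFP cells, 16.04-fold and 22.02-fold higher (adjusted p = 0.0272 and 0.0233). At 24 h it was 5.28-fold and 8.68-fold higher, with 1 untreated array of control at 10.30 and the other at 7.47. BLVRB, a biliverdin reductase, rose 4.91-fold and 4.79-fold at 24 h, and FTL, the ferritin light chain, 1.60-fold and 2.06-fold, whereas FTH1, the heavy chain, changed by 0.09 and 0.33 on its brightest probe and did not pass. Of the 3 further FTH1 probes none passed in control and 2 did in LP-1-cIAP2-eGFP cells (0.45, adjusted p = 0.0458, and 0.50, adjusted p = 0.0203).

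Of 32 further glutathione, thioredoxin and peroxide genes, 28 were tested, and 6 rose and 9 fell in control at 24 h, and 6 rose and 10 fell in LP-1-cIAP2-eGFP cells. Among all probes 9.81% rose and 11.2% fell in control, and 11.1% and 17.5% in LP-1-cIAP2-eGFP cells. GPX3, the secreted glutathione peroxidase, was at 4.39 and 5.39 untreated and 9.74 and 9.26 with bortezomib in control at 24 h, and at 6.73 and 6.43 against 9.91 and 10.65 in LP-1-cIAP2-eGFP cells. The changes were 4.61 and 3.70 on this probe, which was well above background on 15 of 16 arrays, and 3.19 and 3.58 on a second probe (adjusted p = 0.033 and 0.0161), so neither their size nor the order of the lines is settled. IDH2, the mitochondrial counterpart of IDH1, went opposite to it, with 12.69 and 12.77 untreated and 10.67 and 10.69 with bortezomib in control, and 11.30 and 11.11 against 8.51 and 8.84 in LP-1-cIAP2-eGFP cells, 4.15-fold and 5.78-fold lower (adjusted p = 2.34e-05 and 5.58e-06). MSRB1, a methionine sulfoxide reductase, rose by 2.19 and 1.69, and SESN2, a stress-induced sestrin, by 2.13 and 3.10, the former against untreated arrays at 11.51 and 9.46.

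Of the 7 arrestin-domain relatives and upstream factors of TXNIP, 6 were tested, and 1 rose and 0 fell in control at 24 h, and 2 rose and 1 fell in LP-1-cIAP2-eGFP cells. Beside this, 9.81% of all probes rose and 11.2% fell in control, and 11.1% and 17.5% in LP-1-cIAP2-eGFP cells. ARRDC4, which like TXNIP is induced by the glucose-sensing factor MondoA, rose by 1.95 in control at 24 h (adjusted p = 0.000368), while TXNIP fell there, and LP-1-cIAP2-eGFP cells had a rise of 2.51 (adjusted p = 7.08e-05). ARRDC3, another arrestin-domain gene, changed by 1.26 in control (adjusted p = 0.111) and rose by 2.57 in LP-1-cIAP2-eGFP cells (adjusted p = 0.00388). MLX, the binding partner of MondoA, changed by -0.53 (adjusted p = 0.107) and by -1.03 (adjusted p = 0.0046), the lower treated value being the dim array, and its second probe passed in neither line (-0.02 and -0.33, adjusted p = 0.963 and 0.1905). MLXIP, which encodes MondoA, changed by -0.46 and -0.69 on its brightest probe and by -0.52 and 0.20 on another, and none of these passed.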

How the data were processed

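RNA from the 8 conditions was measured on 16 single-colour arrays, 2 per condition. The deposited scanner files hold intensities that the Agilent software had background-subtracted but not normalized between arrays. The authors also deposited log2 values, quantile normalized in GeneSpring and centred per probe, which were used as an alternative. Here outlier spots were left out, the spots of a probe were averaged as log2 values, and arrays were quantile normalized with limma 3.58.1. A probe was tested where the arrays of at least 1 condition both put it well above background (33731 probes), with 1 mean per condition, lmFit and eBayes (1.61 prior degrees of freedom) and Benjamini-Hochberg adjustment. Symbols came from RefSeq accessions (28174 of 50599 probes matched). A gene is given by its brightest tested probe. All 36 genes are reported, and of other lists at most the 3 largest called rises and falls at 24 h plus a few fixed genes. Genes and lists were chosen with earlier results of these data known. Slide and scan coincided in 2 batches. Array labels gave groups and replicates, and the fits were tested on simulated data. Single values of some genes on the lists are not reported here.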

Additional observations from a re-analysis of the deposited data

How the results depend on the processing

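Counts of genes called were recomputed under 11 alternatives besides leaving out each array, and with 75th percentile scaling without the dim array, which was chosen after seeing the data. With only probes above background on all 16 arrays, calls were 11 and 8 at 6 h (control, LP-1-cIAP2-eGFP) and 17 between the times, against 6, 4 and 11. Array weights gave 16 at 6 h in control and 5 at 24 h in LP-1-cIAP2-eGFP cells, against 6 and 17. Asking for more than 2-fold left 11 and 10 at 24 h, 1 between the lines and 4 between the times, from 20, 17, 12 and 11. Leaving out 1 array gave 1 to 11 and 1 to 7 calls at 6 h, 14 to 21 and 14 to 26 at 24 h, 10 to 16 between the lines, 10 to 20 between the times, 0 to 5 for the difference of the 24 h responses, and 0 for that at 6 h and for untreated cells. The highest 24 h values came without LP-1-cIAP2-eGFP bortezomib 24 h replicate 2 (26, 5 and 20); without the dim array the counts were 11 and 7 at 6 h, 21 and 17 at 24 h, and 15 between the times. The direction turned for GSS in LP-1-cIAP2-eGFP cells at 24 h, at 0.027 (adjusted p = 0.927) with normexp against -0.44; the cause of these changes was not tested. With 75th percentile scaling the median of all probes at 24 h in LP-1-cIAP2-eGFP cells was 0.206, against -0.164, and 0.041 without the dim array as well. Samples share only a number. The deviations of same-numbered arrays correlated at -0.016 to 0.211 between treated and untreated cells of a line and time. Over all 28 pairs of conditions they correlated at -0.113 to 0.236. The replicate block gave 6 and 5 calls at 6 h and 19 and 20 at 24 h.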
